A study of Mus musculus with 48 samples.

Results

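A group of 10 genes of the core autophagy machinery were followed across the immunoprecipitated and supernatant RNA of the female mouse preoptic area: Atg7, Atg3, Atg5, Atg12, Becn1, Ulk1, Ulk2, Sqstm1, Gabarap and Gabarapl1. They are 10 of the 23284 genes in the count table, and all 10 passed the filter on low counts in every fit. Atg7 was picked because it was higher in adults than in young mice in the immunoprecipitate and not in the supernatant. Its values by age and fraction are therefore given as a description, with no test. The other 9 were picked by function, to ask whether Atg7 moved alone.

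All animals of the 8 groups carried Cre driven by the gonadotropin-releasing hormone (GnRH) gene and a floxed-stop L10a-GFP allele, so that GnRH neurons, the hypothalamic cells that drive the reproductive axis, made a green fluorescent ribosomal protein. Ribosomes and their RNA were pulled down by the tag (IP, the fraction labelled GnRH enriched), and the depleted supernatant was kept as the second fraction. Each fraction held libraries from young mice, called prepubertal in the series' design, exposed before birth to vehicle (n = 6) or to the androgen dihydrotestosterone (DHT, n = 6), and from adults, called diestrous in the labels, exposed to vehicle (n = 5) or DHT (n = 6). One more IP and 1 more supernatant library came from young mice with the Floxed L10a-GFP allele and no Cre, which have no tagged ribosomes; there was no such adult control. IP totals ran from 28672561 to 47054031 counts and supernatant totals from 28136004 to 55479453. Of the sample numbers in the labels, the highest 10 (called here the last 10) belong to young mice, 2 of 6 vehicle and 3 of 6 DHT libraries per fraction, and every adult library has a lower number. No source used here says what the numbers stand for, so values are also given by sample number for some of the genes and markers that differ. Levels are in CPM (counts scaled to the library total), and differences are log2 fold changes ± SE from edgeR.

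Macroautophagy wraps cytoplasm in a double membrane and delivers it to the lysosome, and neurons depend on it to clear proteins and organelles over a long life. The ULK kinases start the process and Beclin 1, in a lipid kinase complex, marks the membrane. ATG7, an enzyme resembling ubiquitin-activating E1 enzymes, activates both ATG12 and the ATG8 proteins (the LC3 and GABARAP families). ATG12 is then joined to ATG5, ATG8 proteins are passed by ATG3 to a membrane lipid, and receptors such as p62, the product of Sqstm1, tether cargo to them.

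Of the 10 genes, 8 have a promoter entry in the RefSeq table of build GRCm38.p6. The E-box hexamer CACGTG, a palindrome that reads alike on both strands and forms the centre of the longer, also palindromic CLEAR element of lysosomal genes, was searched in the 250 bases before each annotated start. It was found before Atg7, Atg5 and Atg3, and 6.02% of the 32851 promoters in the table hold it. The 3 windows are shown because they hold the hexamer, which is in capitals. The windows of Ulk1, Ulk2, Sqstm1, Gabarap and Gabarapl1 did not hold it.
Atg7: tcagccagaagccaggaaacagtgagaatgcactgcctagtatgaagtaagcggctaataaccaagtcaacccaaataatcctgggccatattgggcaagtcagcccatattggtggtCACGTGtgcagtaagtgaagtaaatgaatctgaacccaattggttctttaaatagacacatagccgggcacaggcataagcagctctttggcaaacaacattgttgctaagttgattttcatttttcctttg
Atg5: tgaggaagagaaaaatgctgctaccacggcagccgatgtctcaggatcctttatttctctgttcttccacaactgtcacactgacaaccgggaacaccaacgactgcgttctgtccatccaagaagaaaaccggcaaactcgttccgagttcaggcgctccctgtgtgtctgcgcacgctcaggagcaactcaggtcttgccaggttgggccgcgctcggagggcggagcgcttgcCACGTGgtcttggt
Atg3: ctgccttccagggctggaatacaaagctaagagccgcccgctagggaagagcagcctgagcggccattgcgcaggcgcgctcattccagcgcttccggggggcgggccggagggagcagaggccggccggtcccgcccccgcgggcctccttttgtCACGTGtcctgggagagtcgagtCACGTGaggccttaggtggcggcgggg
The Atg7 window is chr6:114670846-114671095 on the plus strand and holds the hexamer once. It lies inside the GENCODE span of the gene (chr6:114643097-114860614), downstream of that annotation's most upstream start. The Atg5 window is chr10:44268089-44268338 and holds it once, and the Atg3 window, shortened to stop before the first annotated exon, is chr16:45158579-45158784 and holds it at both of the capitalised places. The full CLEAR element (0.24% of promoters) and the cyclic AMP response element TGACGTCA (1.55%) were in none of the 8 windows, and TGACNNNGC, the core of the antioxidant response element (10.2% of promoters), was before Ulk2 alone. Such a match describes the letters and is no measure of binding.

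Atg7 RNA was low and steady in the supernatant and much more abundant in adult IP than in young IP. In IP from young vehicle mice it ran from 34.6 to 99.8 CPM with a median of 85.1 (mean 74.6 ± 26.8 SD, n = 6). In IP from adult vehicle mice the 5 libraries held 181, 240, 278, 404 and 509 CPM (mean 322 ± 133 SD). In DHT mice the IP range was 42.7 to 114 CPM in the young (median 64.2, n = 6) and 204 to 485 CPM in the adults (median 271, n = 6). Every adult IP library was above every young IP library in both treatments, an arrangement that 1.62% of all genes tested showed in vehicle and 1.8% in DHT IP. The adult libraries also spread widely among themselves.

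In the supernatant Atg7 stood at 36.3 ± 5.55 CPM (SD, n = 6) in young vehicle and 34.9 ± 6.99 CPM (n = 6) in young DHT mice. The adult vehicle supernatants held 33.1, 34.8, 35.6, 39.9 and 43.9 CPM, and the adult DHT supernatants 39.2 to 44.2 CPM (median 41.1, n = 6). Young and adult supernatants overlapped in both treatments. The adult over young difference was 2.16 ± 0.30 in vehicle IP and 2.16 ± 0.29 in DHT IP, against 0.02 ± 0.13 and 0.23 ± 0.12 in the supernatants. The difference between the fractions in that age difference was 2.18 ± 0.33 in vehicle and 1.94 ± 0.31 in DHT mice. These are the values that chose Atg7. In tissue-level RNA such as this, fewer cells of a type and less RNA per cell cannot be told apart.

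**Figure D1:**
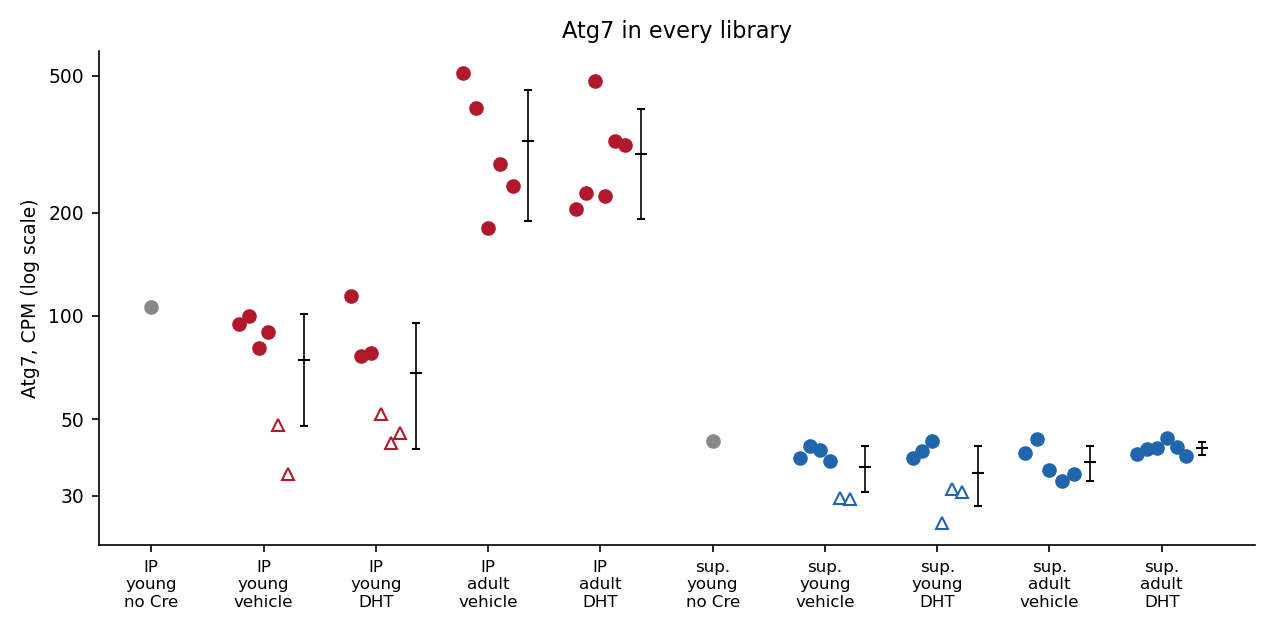
Atg7 in CPM (log axis) in each of the 48 libraries, by fraction, age and prenatal treatment; filled circles have earlier sample numbers, open triangles the last 10, grey points are mice without Cre, and black ticks with bars are the mean ± SD. Adult IP libraries sit at 181 CPM or more, young IP libraries at 114 or less and all supernatants between 24.98 and 44.2.

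The young libraries with the last 10 sample numbers held less Atg7 in both fractions. In young vehicle IP the 4 earlier libraries held 80.5 to 99.8 CPM and the 2 later ones 34.6 and 48.3 CPM. In young DHT IP the 3 earlier libraries held 76.6 to 114 CPM and the 3 later ones 42.7 to 51.7 CPM. The 2 sets did not overlap in either treatment. How many of all genes split in this way was not counted. The size of the age difference depends on which young libraries are used. The adult over young ratio of means was 4.32 in vehicle IP, 3.54 against the earlier young libraries alone and 7.78 against the later ones; in DHT IP it was 4.36, 3.31 and 6.36. In the supernatant the later young libraries lay at 29.4 (vehicle) and 29.0 CPM (DHT) on average against 39.8 and 40.8 for the earlier ones, and against the earlier ones the adult over young ratio was 0.941 in vehicle and 1.01 in DHT mice.

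The mice without Cre give the background of the pull-down, though only in young tissue and with 1 library per fraction. Their IP library held 106 CPM of Atg7 (95% Poisson interval for counting error 103 to 110) and their supernatant 43.2 CPM (41.1 to 45.4), a ratio of 2.47. The young tagged mice had IP over supernatant differences of 1.02 ± 0.22 (vehicle) and 0.98 ± 0.22 (DHT) on the log2 scale, or 2.02-fold and 1.97-fold. In young mice the excess of Atg7 in IP over supernatant was thus no larger than in the single pair without tagged ribosomes. In adults the same differences were 3.20 ± 0.26 (9.19-fold) and 2.92 ± 0.23 (7.55-fold), with no adult library without Cre to set them against.

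Gnrh1, the transcript of GnRH neurons themselves, ran from 1751 to 6817 CPM in the young IP libraries and from 664 to 16067 CPM in the adult IP libraries, against 61.6 CPM in the IP without Cre. The sum of the 4 markers fixed for GnRH neurons (Gnrh1, Six6, Isl1 and Kiss1r) ran from 1894 to 7004 CPM in young and from 2059 to 16385 CPM in adult vehicle IP, and from 2961 to 4099 and from 756 to 13459 CPM in DHT IP. In adult vehicle IP, the libraries with 1951, 5919, 6065, 10542 and 16067 CPM of Gnrh1 held 404, 181, 509, 278 and 240 CPM of Atg7. In adult DHT IP, those with 664, 2503, 3674, 4206, 8992 and 13177 CPM of Gnrh1 held 229, 223, 204, 485, 324 and 314 CPM of Atg7. The 3 DHT libraries with the most Gnrh1 were thus the 3 with the most Atg7, while the vehicle libraries showed no such split. These are readings of single libraries, with no test.

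Marker levels of other cells also differed between the ages. The summed level of 5 markers of oligodendrocyte precursors (Pdgfra, Cspg4, Gpr17, Olig1 and Olig2) ran from 309 to 374 CPM in young vehicle IP and from 136 to 209 CPM in adult vehicle IP, and from 557 to 685 against 271 to 361 CPM in the supernatants. In DHT IP they ran from 293 to 488 CPM in the young and from 105 to 249.9 CPM in the adults. The 7 astrocyte markers ran from 390 to 543 CPM in young and 199 to 350 CPM in adult vehicle IP, without overlap. In DHT IP (405 to 481 and 161 to 562 CPM) and in the supernatants (465 to 591 and 388 to 631 CPM in vehicle, 455 to 760 and 313 to 668 CPM in DHT mice) the astrocyte ranges of young and adult mice overlapped. In young DHT supernatant these markers ran from 455 to 532 CPM in the earlier libraries and from 682 to 760 CPM in the last 10 sample numbers. All adult DHT supernatants lay below that later set. The 6 endothelial and mural markers summed to 10.2 to 32.7 CPM in young and 4.92 to 7.76 CPM in adult vehicle IP, and to 10.4 to 27.4 and 0.628 to 44.5 CPM in DHT IP. The 5 neuronal markers ran from 3410 to 3867 CPM in young and from 3911 to 4345 in adult vehicle IP, and the 7 microglial markers from 29.997 to 66.3 and from 57.3 to 78.2 CPM. In young vehicle IP the microglial markers ran from 29.997 to 39.3 CPM in the earlier libraries and were at 54.1 and 66.3 CPM in the last 10 sample numbers. No marker of these lists was at 0 in all libraries of any of the 8 groups. The part of these shifts in the Atg7 result was not tested.

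The 9 other core genes showed no such rise in IP. None of the 9 passed an adjusted p of 0.05 between adult and young in vehicle IP or in DHT IP (edgeR quasi-likelihood test with Benjamini-Hochberg adjustment over 15890 genes), where 3.83% and 7.12% of all genes tested were called. At an unadjusted p below 0.05 there were 0 of 9 in vehicle and 1 of 9 in DHT IP, and DESeq2 and limma-voom called 0 in both. Their log2 changes ran from -0.27 to 0.27 in vehicle IP and from -0.36 to 0.57 in DHT IP, with medians of -0.07 and -0.11 beside 0.01 and 0.03 for all genes tested. The difference of the age change between fractions was called for 0 of 9 in either treatment, against 1.04% of all 16660 genes in vehicle and 0.882% in DHT mice, with 0 of 9 at an unadjusted p below 0.05 and 0 by DESeq2 or limma-voom. The standard errors in IP, 0.11 to 0.31 in vehicle mice, still leave room for modest changes.

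**Figure D2:**
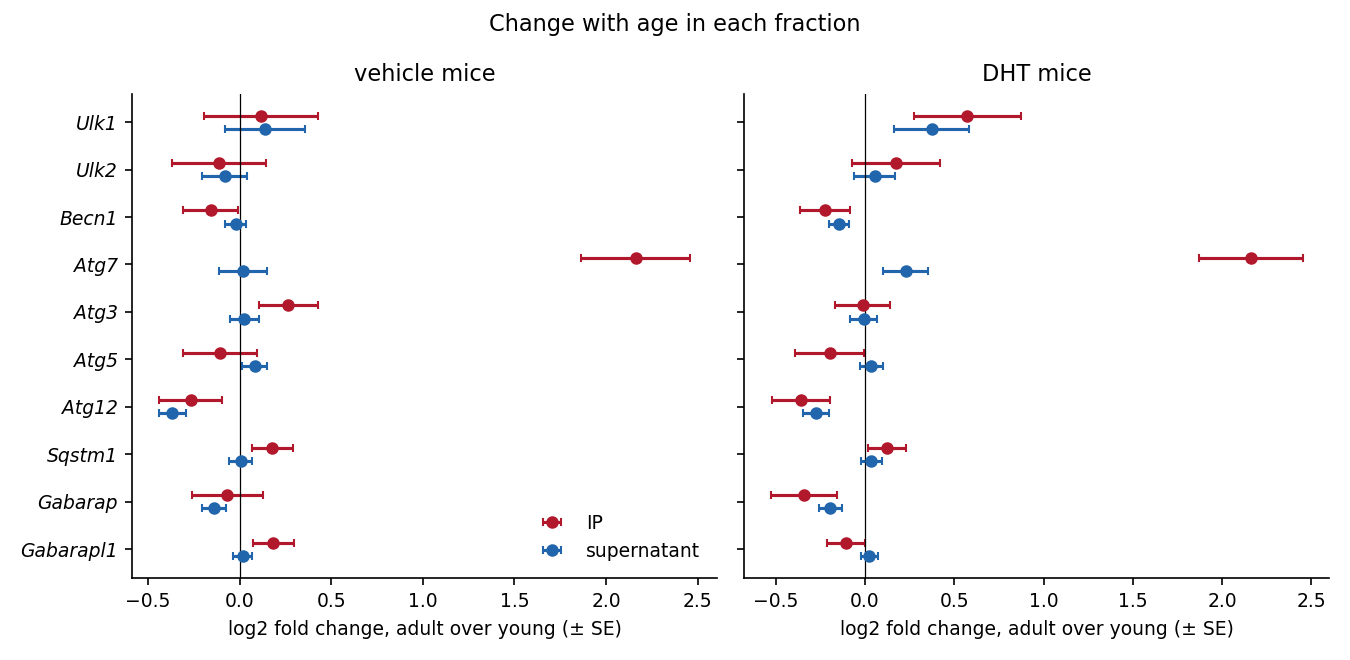
Adult over young log2 fold change (± SE) of each gene in IP and in supernatant, vehicle mice on the left and DHT mice on the right. Atg7 in IP stands at 2.16 in both, and the IP values of the 9 others lie between -0.36 and 0.57.

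Among the genes that start the process, Ulk1, the kinase that responds to nutrient and energy state, also varied with sample number. In young IP its earlier libraries held 62.2 to 95.3 CPM in vehicle and 62.5 to 86.8 CPM in DHT mice, against 26.9 and 41.9 CPM and 24.2 to 47.4 CPM in the last 10 sample numbers. Adult IP held 50.05, 59.0, 62.2, 75.2 and 85.7 CPM in vehicle and 39.7 to 131 CPM (median 76.6, n = 6) in DHT mice. All 5 adult vehicle libraries were above the 2 later young ones and overlapped the earlier ones, and the adult DHT libraries overlapped both sets. Its change with age in DHT IP was 0.57 ± 0.30 (adjusted p = 0.29, edgeR) and came to 0.14 without the last 10 sample numbers. Ulk2, its closest paralog, changed by -0.11 ± 0.26 in vehicle and 0.17 ± 0.24 in DHT IP (adjusted p = 0.90 and 0.79, edgeR). In young vehicle IP its earlier libraries held 90.8 to 121 CPM and the later ones 61.1 and 66.4 CPM. The adult over young ratio of means there was 0.781 against the earlier and 1.24 against the later libraries. In DHT IP the sets overlapped (62.1 to 107 and 55.2 to 71.7 CPM), with ratios of 0.930 and 1.36. Becn1, which encodes Beclin 1, stood at 250 ± 22.5 CPM in young and 219 ± 53.4 CPM in adult vehicle IP, and its ranges overlapped (-0.16 ± 0.15, adjusted p = 0.69, edgeR).

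The enzymes that act with ATG7 stayed within their spread in IP. Atg3, the E2-like enzyme that takes ATG8 proteins from ATG7, ran from 69.6 to 134 CPM in young vehicle IP and held 111, 114, 123, 125 and 167 CPM in adult vehicle IP (0.27 ± 0.16, adjusted p = 0.44, edgeR). Atg5, the acceptor of ATG12, ran from 60.1 to 90.9 CPM in young and held 41.6, 65.3, 71.1, 75.1 and 99.3 CPM in adult vehicle IP (-0.11 ± 0.20, adjusted p = 0.88, edgeR). The groups overlapped for both genes, and in DHT IP their changes were -0.01 ± 0.15 and -0.20 ± 0.19.

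Atg12, the ubiquitin-like protein that ATG7 activates, was the 1 member called lower with age in the supernatants of both treatments. Young vehicle supernatants ran from 99.2 to 144 CPM (median 111, n = 6), and adult vehicle supernatants held 78.0, 90.3, 92.1, 93.5 and 98.4 CPM. In DHT mice the ranges were 102 to 114 CPM in the young and 86.0 to 93.4 CPM in the adults (n = 6 each). Every adult supernatant was below every young supernatant in both treatments, an arrangement that 5.4% of genes showed in vehicle and 4.54% in DHT mice. It fell by 0.37 ± 0.07 (adjusted p = 0.0012, edgeR) in vehicle and by 0.27 ± 0.07 (adjusted p = 0.0085, edgeR) in DHT mice. In IP the change was -0.27 ± 0.17 and -0.36 ± 0.16 (adjusted p = 0.49 and 0.21, edgeR), close in size but with wider errors, and the difference between fractions was not called (adjusted p = 0.90 and 0.96, edgeR).

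Of the 9 genes, 1 was called with age in vehicle supernatant (20.3% of all 16286 genes) and 2 in DHT supernatant (19.9%), all of them lower in adults. The other one was Gabarap, which encodes an ATG8 protein of the GABARAP branch and fell by 0.19 ± 0.06 (adjusted p = 0.031, edgeR) in DHT supernatant. It ran from 273 to 346 CPM in the young and from 242 to 293 CPM in the adults there, and the ranges overlapped. This call was lost without the last 10 sample numbers (adjusted p = 0.41, edgeR). Gabarapl1, a second GABARAP gene, and Sqstm1, the cargo receptor, changed by 0.03 ± 0.05 and 0.04 ± 0.06 in DHT supernatant and by 0.02 ± 0.05 and 0.01 ± 0.06 in vehicle supernatant. The same genes in vehicle IP were at 0.19 ± 0.11 and 0.18 ± 0.11 (adjusted p = 0.42 and 0.45, edgeR).

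**Figure D3:**
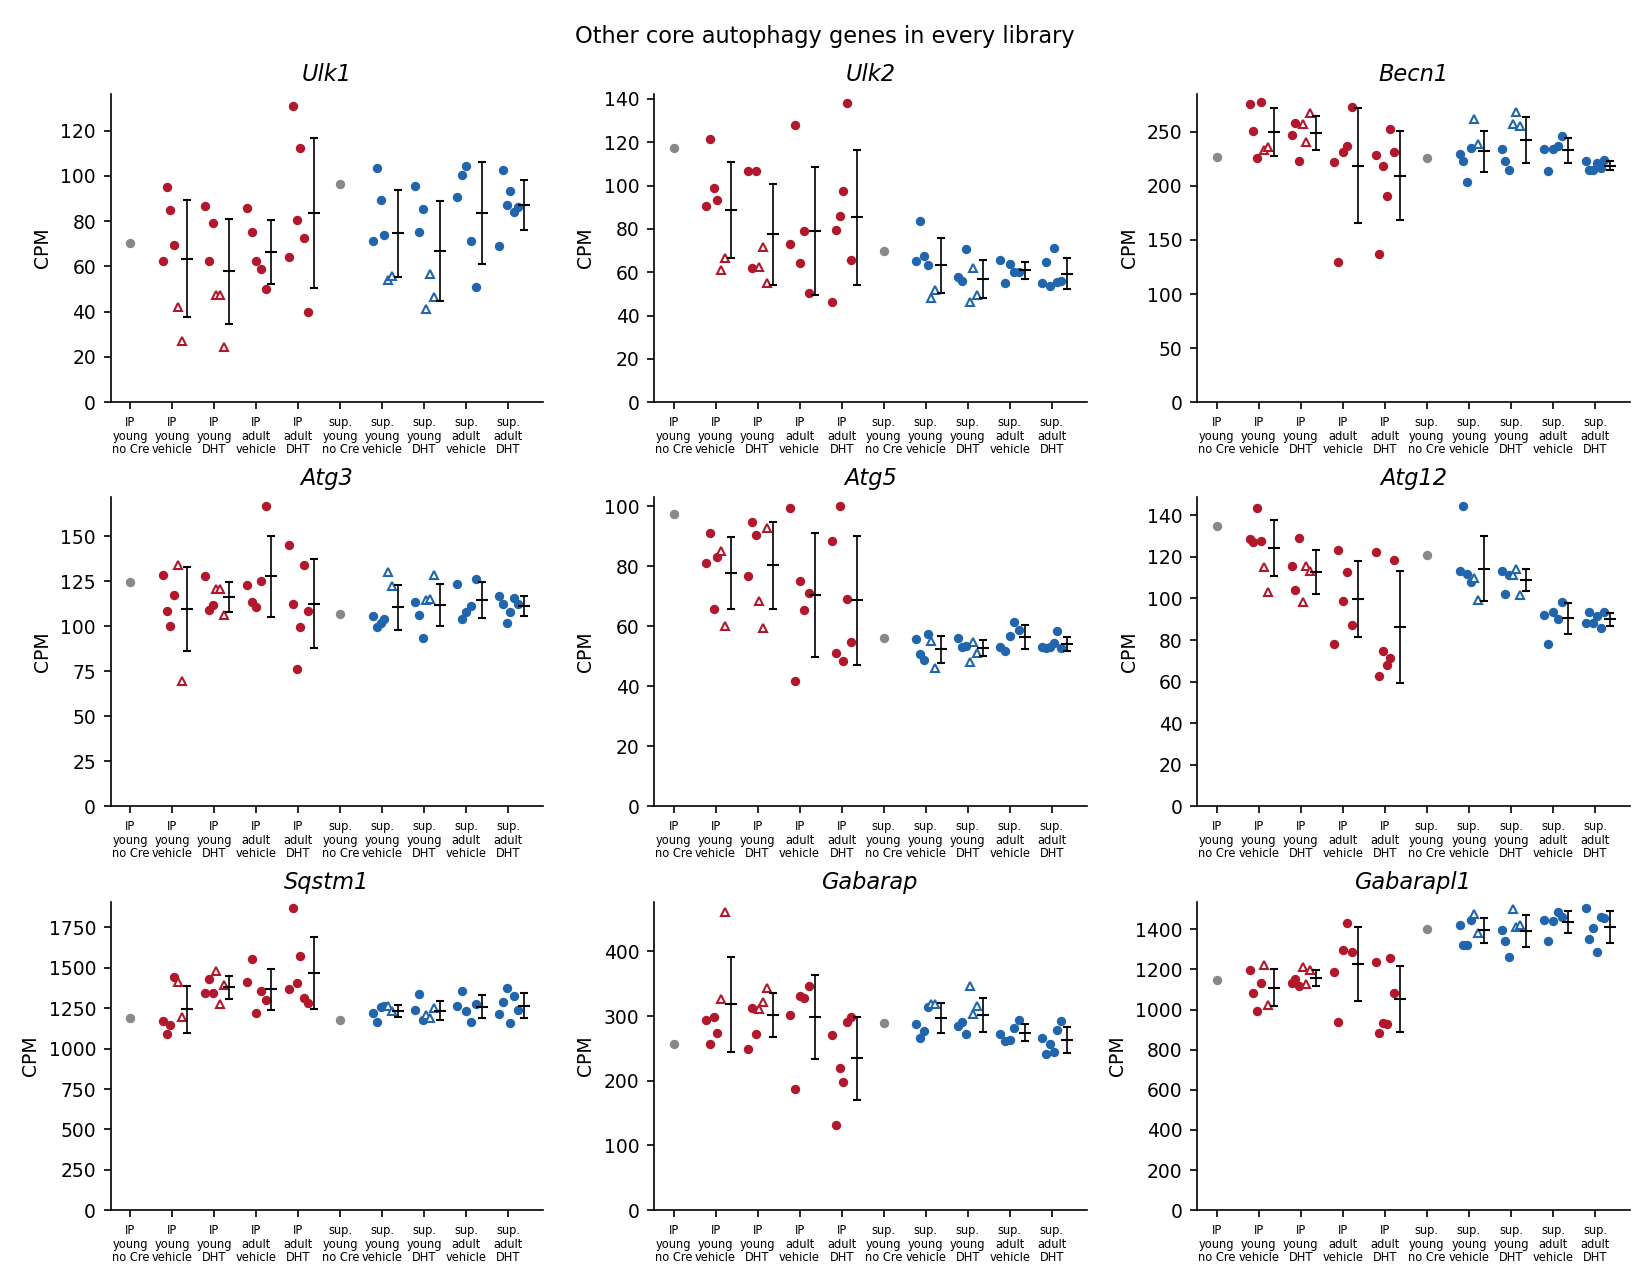
CPM of the 9 other genes in each library (axes start at 0), with groups, symbols and mean ± SD bars as in the plot of Atg7. Groups overlap in IP for every gene, and the supernatant panels show Atg12 lower in all adult libraries than in all young ones.

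Set per kilobase of annotated exon, with the exons of all GENCODE transcripts of a gene joined, Atg7 changed its place among the 10. That length can differ from the length of the transcript expressed, so places between genes are approximate. In vehicle supernatants Atg7 had the lowest value at both ages, at 5.21 CPM per kb in the young and 5.37 in the adults. In young vehicle IP it was the second lowest at 10.7 CPM per kb, beside Ulk1 at 9.78, and in adult vehicle IP it stood at 46.3 CPM per kb, next after Gabarapl1 (610), Sqstm1 (408) and Gabarap (162). The next in adult IP were Atg3 (40.5), Becn1 (30.9) and Atg5 (29.97). The spread of Atg7 in that group (coefficient of variation 41.2%) is wider than its distance from Atg3, so these neighbours are not separated. The 3 genes with the highest values kept their order in all 4 of these groups.

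Averaged over age and treatment, several of the genes differed between IP and supernatant. Of the 10, 4 were called higher in IP and 1 lower, against 24.4% higher and 21.7% lower of 16660 genes (46.1% in all, edgeR), so the count is close to the background. Atg7 was the highest at 2.03 ± 0.12, a value that the adult IP levels that chose it also enter. Atg5 was higher in IP by 0.51 ± 0.08 (adjusted p = 2e-07, edgeR), Ulk2 by 0.51 ± 0.10 (adjusted p = 2.5e-05, edgeR) and Sqstm1 by 0.18 ± 0.04 (adjusted p = 0.00044, edgeR). Gabarapl1 was lower by 0.26 (log2 -0.26 ± 0.05, adjusted p = 6.8e-06, edgeR).

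These differences can be set beside the mice without Cre. There the IP over supernatant ratio was 1.74 for Atg5 and 1.69 for Ulk2, against fitted folds of 1.43 and 1.42 in the tagged mice. It was 0.820 for Gabarapl1 (0.838 in tagged mice) and 1.01 for Sqstm1 (1.13 in tagged mice). These folds of tagged mice are fitted averages over both ages and treatments, while the pair without Cre is young and gives a CPM ratio. In young vehicle and young DHT mice the fitted folds were 1.48 and 1.56 for Atg5 and 1.39 and 1.38 for Ulk2. They were 0.797 and 0.857 for Gabarapl1 and 1.01 and 1.15 for Sqstm1. For Atg5, Ulk2 and Gabarapl1 the single pair without tagged ribosomes lay on the same side as the tagged mice. The call for Sqstm1 was lost without the last 10 sample numbers (0.11, adjusted p = 0.11, edgeR). The remaining 5 were not called: Atg3 (0.11 ± 0.06), Atg12 (0.12 ± 0.06), Becn1 (0.05 ± 0.06), Ulk1 (-0.17 ± 0.13) and Gabarap (0.08 ± 0.08).

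Within single conditions, Atg5 was the 1 gene of the 9 called higher in IP in all 4. In the young the difference was 0.57 ± 0.15 after vehicle and 0.65 ± 0.15 after DHT (adjusted p = 0.0035 and 0.0011, edgeR), where 11.3% and 10.7% of genes were called higher. In the adults it was 0.42 ± 0.16 and 0.41 ± 0.15 (adjusted p = 0.048 and 0.037, edgeR), where 12.8% and 11.6% were. In supernatant it was even, at 45.9 to 61.4 CPM over all 23 libraries, while IP ran from 41.6 to 99.96 CPM. Gabarapl1 was lower in IP in young vehicle (-0.33 ± 0.09, adjusted p = 0.0049, edgeR) and adult DHT mice (-0.35 ± 0.09, adjusted p = 0.0027, edgeR), where 10.5% and 9.83% of genes were called lower. Ulk2 (0.59 ± 0.19, adjusted p = 0.020, edgeR) and Sqstm1 (0.28 ± 0.08, adjusted p = 0.012, edgeR) were called higher in adult DHT mice.

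**Figure D4:**
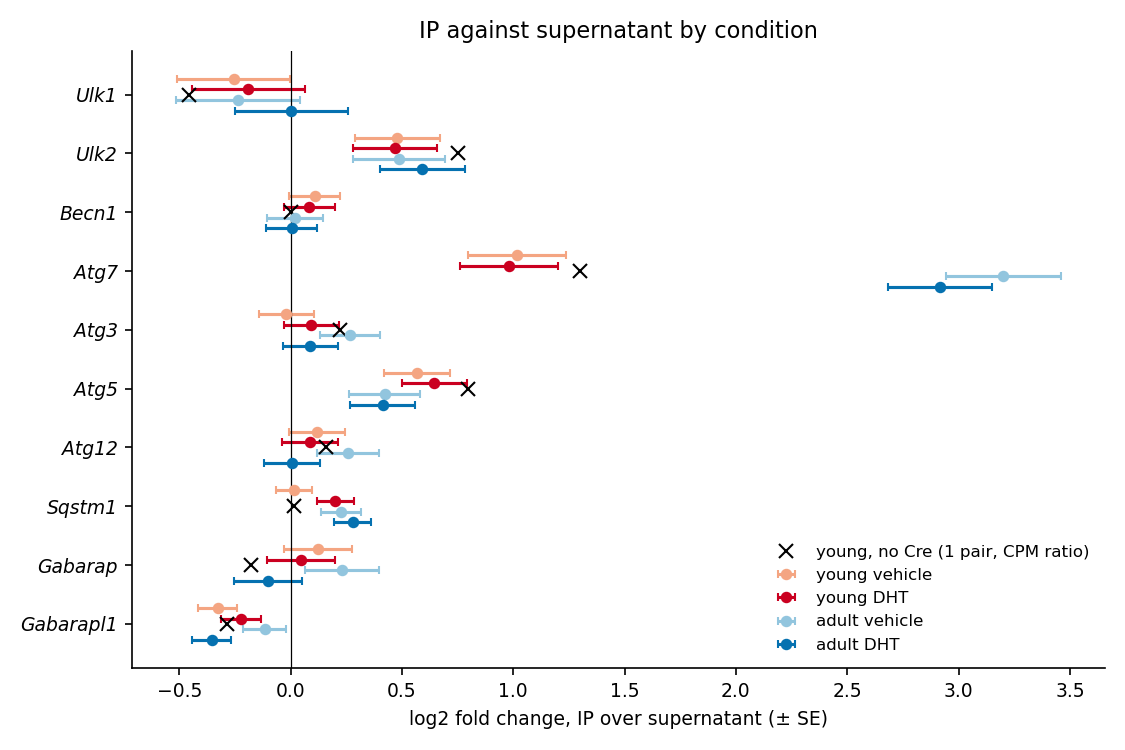
IP over supernatant log2 fold change (± SE) of the 10 genes in each of the 4 conditions, with crosses for the CPM ratio of the single pair without Cre. Atg7 stands near 1 in young mice, beside its cross, and near 3 in adults.

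No core gene was called for prenatal DHT. In IP, 0 of 10 were called in either age, where 0% of all genes were called in the young and 0.00629% in the adults (edgeR). In supernatant, 0 of 10 were called in either age, where 0% of all genes were called in both (edgeR). DESeq2 and limma-voom also called 0 of 10 in each. Atg7 differed between DHT and vehicle by -0.13 ± 0.28 in young IP, -0.13 ± 0.29 in adult IP, -0.07 ± 0.12 in young supernatant and 0.14 ± 0.13 in adult supernatant. At an unadjusted p below 0.05 there was 1 gene, Gabarapl1 in adult IP (-0.23 ± 0.11, adjusted p = 0.58, edgeR). The IP errors for Atg7 are wide enough that a modest change would not have been seen, and these values do not show that the treatments act alike.

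A wider set of 72 autophagy and lysosome genes was read beside the core genes, all of them tested. In IP, 4 of 72 were called with age in vehicle (3 higher, 1 lower) and 6 of 72 in DHT mice (3 higher, 3 lower), close to the 3.83% and 7.12% called among all genes. In supernatant, 19 of 72 were called in vehicle (11 higher, 8 lower) and 24 of 72 in DHT mice (16 higher, 8 lower), where 20.3% and 19.9% of all genes were called. Without the last 10 sample numbers the count in DHT mice was 7 (Map1lc3a, Map1lc3b, Tax1bp1, Prkaa1, Atg14, Sh3glb1 and Tfeb). Calls over all genes in DHT supernatant also fell then, from 3248 to 1121. No gene of the 72 was called for a difference of its age change between fractions in either treatment (edgeR), with 7 in vehicle and 6 in DHT mice at an unadjusted p below 0.05; DESeq2 called 0 and 1 and limma-voom 0 in both. Between IP and supernatant over all conditions, 15 of 72 were called higher and 23 lower in IP, where 24.4% and 21.7% of all genes were called. The median log2 age change of the 72 in IP was 0.22 in vehicle and 0.20 in DHT mice, beside 0.01 and 0.03 for all genes tested.

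The LC3 genes of the ATG8 family were lower in adults, in both fractions. Map1lc3b, which encodes the LC3B protein used to mark autophagosomes, stood at 957 ± 60.2 CPM in young vehicle IP (n = 6) and 614 ± 67.4 CPM in adult vehicle IP (n = 5), with supernatants at 849 ± 47.5 and 583 ± 48.8 CPM. In DHT mice it stood at 953 ± 71.0 and 564 ± 109 CPM in IP and 819 ± 51.0 and 610 ± 38.7 CPM in supernatant (n = 6 each). All adult libraries lay below all young ones of the same fraction and treatment, as 3.1% and 2.91% of genes did in vehicle and DHT IP and 5.4% and 4.54% in the supernatants. It fell by 0.60 ± 0.12 in vehicle IP (adjusted p = 0.0050, edgeR), by 0.73 ± 0.11 in DHT IP (adjusted p = 0.00026, edgeR), by 0.57 ± 0.06 in vehicle supernatant (adjusted p = 6.9e-07, edgeR) and by 0.42 ± 0.06 in DHT supernatant (adjusted p = 2e-05, edgeR). Map1lc3a, its paralog, fell in DHT IP (-0.85 ± 0.17) and in both supernatants (-0.47 ± 0.08 in vehicle, -0.48 ± 0.07 in DHT mice), and was at -0.44 ± 0.18 in vehicle IP (adjusted p = 0.18, edgeR). Without the last 10 sample numbers Map1lc3b remained called in all 4 comparisons, and Map1lc3a in DHT IP was not (adjusted p = 0.068, edgeR). Gabarapl2, the third gene of this list, was not called with age, but was higher in IP than in supernatant by 0.86 ± 0.09 (adjusted p = 4.8e-11, edgeR), with a ratio of 1.46 in the mice without Cre.

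Of 13 other cargo receptors and mitophagy genes, those called with age were all higher in adults: 1 in vehicle IP, 3 in DHT IP and 4 in each supernatant, where 3.83%, 7.12%, 20.3% (vehicle) and 19.9% (DHT) of all genes were called. Without the last 10 sample numbers, where calls over all genes also fell, 1 of the 4 in DHT supernatant was left (Tax1bp1). Leaving out 1 library gave 1 to 5 in vehicle supernatant and 0 to 2 in vehicle IP. Tax1bp1, a receptor for ubiquitinated cargo, rose in all 4 comparisons, by 0.64 ± 0.18 in vehicle IP (adjusted p = 0.047, edgeR), 0.78 ± 0.18 in DHT IP (adjusted p = 0.0077, edgeR), 0.35 ± 0.08 in vehicle supernatant and 0.26 ± 0.08 in DHT supernatant. Its call in vehicle IP was lost under 5 alternatives, such as RLE scaling and the compared groups alone, and in 16 of 23 fits that left out 1 library. Nbr1, a receptor with a domain layout like that of p62, rose in DHT IP by 1.08 ± 0.21 (adjusted p = 0.0024, edgeR) from 91.5 ± 5.08 to 190 ± 70.0 CPM, and in the vehicle and DHT supernatants by 0.29 ± 0.09 and 0.34 ± 0.09. Its call in DHT supernatant was lost without the last 10 sample numbers (0.26, adjusted p = 0.14, edgeR) and with a term for them, and that in vehicle supernatant with the term and in 5 of 23 fits that left out 1 library. Calcoco1 rose by 0.77 ± 0.23 in DHT IP (adjusted p = 0.042, edgeR), a call lost without the last 10 sample numbers, where its fold was no smaller (0.84, adjusted p = 0.21, edgeR). That call was also lost with limma-voom, the compared groups alone and the replicate block, and in 11 of 23 fits that left out 1 library. Sqstm1, the receptor among the core genes, was called in none of these comparisons.

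The other 7 conjugation enzymes include the E2-like Atg10, the scaffold Atg16l1 and the ATG4 proteases that prepare and recycle ATG8 proteins. None were called with age in IP, where 3.83% (vehicle) and 7.12% (DHT) of all genes were called. For a list this short that is close to the background. In supernatant Atg4a (-0.47 ± 0.13 and -0.45 ± 0.12) and Atg4d (-0.39 ± 0.07 and -0.31 ± 0.07) fell in vehicle and DHT mice, and Atg16l1 rose by 0.24 ± 0.07 in DHT mice. Without the last 10 sample numbers, of these calls only that of Atg4d in vehicle supernatant remained. Between fractions, Atg16l2 (0.76 ± 0.09), Atg4a (0.69 ± 0.17) and Atg10 (0.64 ± 0.09) were higher in IP and Atg4c (-0.75 ± 0.12) lower, with ratios of 1.20, 1.73, 1.54 and 0.543 in the pair without Cre. Of the lysosomal list, Ctsb, a lysosomal protease, rose by 0.80 ± 0.17 in vehicle IP and 0.59 ± 0.14 in vehicle supernatant. It was not called with age in either fraction of DHT mice. Also called higher were Lamp1 in vehicle IP (0.51, adjusted p = 0.042, edgeR) and Lamp2 in vehicle supernatant (0.57, adjusted p = 0.026, edgeR). The call for Lamp1 was lost with RLE scaling, no scaling beyond the library total, a CPM filter, the compared groups alone and the replicate block. It was also lost in 16 of 23 fits that left out 1 library. In these 2 comparisons 3.83% and 20.3% of all genes were called. Tfeb, the transcription factor that drives lysosomal genes through the CLEAR element, fell in both supernatants (-0.76 ± 0.08 in vehicle, -0.53 ± 0.08 in DHT mice).

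In the initiation list of 10 genes, none were called with age in IP, where 3.83% (vehicle) and 7.12% (DHT) of all genes were called. Prkaa1, a catalytic subunit of the energy sensor AMPK, rose in both supernatants (0.60 ± 0.14 and 0.69 ± 0.13). In the list of 9 genes around the class III PI3-kinase, the partners of Beclin 1, none were called in IP either. For lists this short these IP counts are close to the background. In the vehicle and DHT supernatants 3 (2 higher, 1 lower) and 7 (5 higher, 2 lower) were called, where 20.3% and 19.9% of all genes were. The 7 came to 2 (Atg14 and Sh3glb1) without the last 10 sample numbers, where calls over all genes also fell. They came to 2 to 7 when 1 library was left out. Atg14, which directs this complex to autophagosome formation, rose in both (0.34 ± 0.09 and 0.40 ± 0.09), and Sh3glb1, whose product bends membranes and binds the complex through UVRAG, fell in both (-0.45 ± 0.08 and -0.46 ± 0.08).

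**Figure D5:**
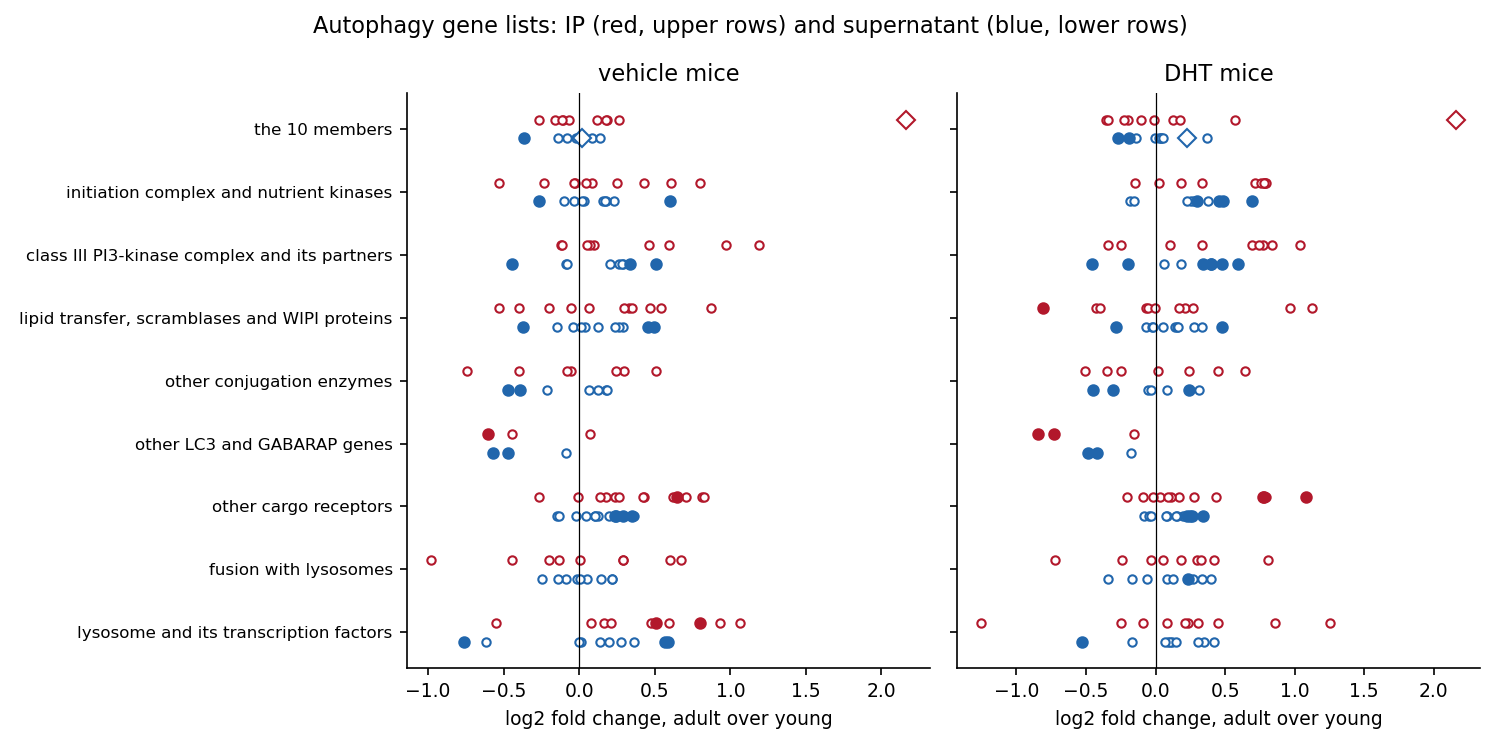
Adult over young log2 fold change of each autophagy gene by list, IP in the upper rows (red) and supernatant in the lower rows (blue), with vehicle and DHT mice side by side; filled points were called, open points were not, and diamonds are Atg7, which has no test. Map1lc3a and Map1lc3b lie to the left of 0 and Atg7 in IP, at 2.16, lies to the right of every other gene drawn.

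The genes whose level was most like that of Atg7 over the 23 IP libraries, out of 10538 genes with a mean of at least 5 CPM, were Kalrn (Pearson r of log2 CPM 0.909), Ptbp2 (0.870), Kctd10 (0.847), Zcchc12 (0.841) and Ivd (0.840). These libraries differ in age, depth and sample number, which the points share, and the values are a description. Kalrn, a guanine nucleotide exchange factor of dendritic spines, stood at 47.1 ± 15.2 CPM in young and 138 ± 41.2 CPM in adult vehicle IP and at 28.3 ± 3.41 and 26.7 ± 3.88 CPM in the supernatants. Like Atg7 it was above its supernatant in the IP without Cre, at 67.5 against 23.6 CPM. Ptbp2, a neuronal splicing regulator, Kctd10 and Ivd were instead about as abundant in adult supernatant as in adult IP (Kctd10 126 and 125 CPM in vehicle mice). None of the core genes came near: the highest r among the 9 was 0.52 for Ulk1, at rank 1224, followed by Sqstm1 (0.30) and Ulk2 (0.23), while Atg12 (-0.48), Gabarap (-0.46) and Becn1 (-0.45) had the lowest values.

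The kit does not mark strand, so reads of genes that overlap on opposite strands could be counted to either. Becn1 (chr11:101285952-101302286, minus strand), Sqstm1 (chr11:50199366-50210827, minus strand) and Gabarapl1 (chr6:129533160-129542346, plus strand) each have exonic sequence inside the span of a gene on the other strand (Cntd1, Mrnip and 1700101I11Rik). Whether it meets exons of those genes was not examined. The span of Atg7 overlaps 3 other annotated genes on the same strand (Gm19040, Gm44332 and Gm44331), none of which overlaps its exons. Atg5 (chr10:44268358-44364291), Atg3 (chr16:45158785-45188538) and Gabarap (chr11:69991143-69994951) on the plus strand, and Ulk1 (chr5:110784488-110810097), Ulk2 (chr11:61775649-61855073) and Atg12 (chr18:46730144-46741580) on the minus strand, overlap no gene on the opposite strand in GENCODE on GRCm38.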

How the data were processed

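Preoptic area RNA was measured in 48 libraries. The deposited table holds estimated counts per gene, and 98.49% of its values were exact whole numbers; all values were rounded before testing. The tools that the submitters' processing notes name are TopHat2 2.0.13 and Bowtie2 2.2.1 for mm10, HTSeq 0.6.1, Cufflinks with Cuffdiff 2.1.1, DESeq2 1.14.1, and FastQC 0.11.3; the one that made the counts, and the annotation, are not given in the sources used here. The SMARTer v4 poly(A) libraries are unstranded.

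Groups follow the labelled RNA fraction, the age and the prenatal exposure. The labels call the replicates biological without saying whether each is 1 animal or a pool, and p-values therefore reflect only how far these samples spread. Counts were tested with edgeR 4.0.16 in R 4.3.3: filterByExpr (minimum count 10, total 15), TMM scaling, robust quasi-likelihood F test, Benjamini-Hochberg adjustment over all genes and a call at 0.05. All 46 libraries of Cre mice (16660 genes) entered the comparisons between fractions, and the 23 of a fraction those of age and DHT (15890 genes in IP, 16286 in supernatant). Libraries without Cre entered no fit. Fits were tested on simulated data. DESeq2 1.42.0, limma-voom (limma 3.58.1), other scalings, filters and sample sets were alternatives. All 10 members are named, and of each wider list at most 4 genes with the smallest p per comparison, and the 5 genes most correlated with Atg7. The marker list of mature oligodendrocytes is not reported here. The members and lists were chosen with earlier results of these data known.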

Additional observations from a re-analysis of the deposited data

Results flagged for a closer look

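A library standing far from the rest of its group, by Dixon's criterion at 95%, was seen in 5 of 80 sets of values (10 genes in 8 groups), and chance alone gives about 1 in 20. Atg3 in adult vehicle IP reached 166.8 CPM in replicate 5, where the next library held 125. Gabarap in the same group fell to 187.2 CPM in replicate 2, where the next held 301.5, and in young vehicle IP it reached 460.7 CPM in replicate 6, where the next held 325.9. Atg12 in young vehicle supernatant reached 144.4 CPM in replicate 2, where the next held 113.5. Atg5 in adult DHT supernatant reached 58.54 CPM in replicate 5, where the next held 54.53. None of the 5 concerned Atg7.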

How the results depend on the processing

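No member's call reversed under any alternative run. Outside the fits that leave out 1 library, 1038 of 1050 values of single members kept their side of the threshold, or for Atg7 by age in supernatant stayed within the spread of libraries; of uncalled values under all alternatives, 232 of 3685 changed sign. The age difference of Atg7 in IP ran from 1.81 to 2.17 in vehicle and from 1.74 to 2.27 in DHT mice over these alternatives, and from 1.96 to 2.32 and 1.96 to 2.36 when each library was left out in turn. In DHT supernatant it was 0.001 without the last 10 sample numbers and 0.002 with a term for them. The members called in DHT supernatant numbered 2, and 1 with no low-count filter, without the last 10 sample numbers, with a term for them or with the compared groups alone; leaving out 1 library gave 1 to 3. Gabarap was the gene lost, also without adult DHT supernatant replicate 2, 3 or 4 or young DHT supernatant replicate 4 or 6.

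The labels do not state that same-numbered samples share tissue, but the sample numbers list replicates in the same order in both fractions. Samples were not treated as paired, so the tests between fractions take each library as independent. Same-numbered IP and supernatant libraries correlated from -0.07 to 0.34 over 23 pairs. As a hint of pairing from the data, 11 of these were over 0.1 and 17 correlated best with their own number, and 7 of 44 pairs within a fraction were over 0.1. With the replicate number as a block, 1 other member was called with age in DHT IP (Ulk1, 0.57, adjusted p = 0.046) and 4 in DHT supernatant (Atg12, Becn1, Ulk1 and Gabarap), and Ulk1 was lower in IP (-0.20, adjusted p = 0.031); the block changed no other member's call. Becn1 in DHT supernatant was also called by limma-voom (adjusted p = 0.019).

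Among the 72 wider genes, DESeq2 called 9 (vehicle) and 14 (DHT) with age in IP and limma-voom 9 and 8, where edgeR called 4 and 6; leaving out 1 library gave 2 to 7 and 5 to 9 in IP and 13 to 30 in DHT supernatant. Over all genes, edgeR called 608 with age in vehicle IP (DESeq2 1149, limma-voom 989, 372 without the last 10 sample numbers) and 1131 in DHT IP (DESeq2 1771, 672 with a term for those numbers, 277 without them). In DHT supernatant it called 3248 (1919 with the term, 1121 without them). The difference between fractions gave 173 genes in vehicle (454, 90 and 91 with DESeq2, limma-voom and a CPM filter, 105 with the block, 399 with the term) and 147 in DHT mice (356, 60 and 96, 243 with the term). DHT gave 1 gene in adult IP (DESeq2 151) and 0 in young supernatant (39 without those numbers). With no scaling beyond the library total, an alternative chosen after seeing the data, the share of calls that were higher moved from 53.3% to 42.9% with age in vehicle IP, from 25.4% to 14.4% for the difference between fractions in vehicle mice and from 53.3% to 41.7% between fractions in adult vehicle mice. Other alternatives moved the share too: for the difference between fractions in vehicle mice to 53.3% (limma-voom), 51.6% (the term) and 44.8% (the block), in DHT mice from 17.0% to 46.9% (the term), 35.0% (without those numbers) and 31.2% (DESeq2), and between fractions over all conditions from 52.9% to 36.5% (limma-voom) and 37.6% (the block). With age in DHT IP it was 53.4%, and 42.2% without those numbers.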
